A study of Homo sapiens with 20 samples.

Results

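SCG5, RIMBP2, ST8SIA5, CHODL and TBR1 are genes best known from neurons and from cells with regulated secretion, and their RNA was followed here in a glioblastoma line given 3 aromatic keto acids. They were taken as the probe sets whose only gene symbol was that of 1 of these genes, which gave 5 of the 11282 genes that could be tested, each with 1 probe set. U-87MG, an established human glioblastoma cell line grown as a monolayer, received I3P, HPP or PP for 24 h, each at 40 µM, and the controls received the solvent DMSO, which stayed at or below 0.2% of the medium. Each of the 4 groups had 5 arrays, which the labels call biological replicates and number 1 to 5, so 20 arrays were used in all. I3P is the keto acid of tryptophan and carries an indole ring, HPP is that of tyrosine and carries a hydroxyphenyl ring, and PP is that of phenylalanine and carries a phenyl ring. The labels describe the compounds as established or presumed ligands of AHR, the aryl hydrocarbon receptor, and the comparisons ask how far their transcriptional responses differ. All groups share a single tumour line, so nothing here bears on neurons or on other glioma cells.

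Values are log2 expression levels made by the authors with RMA, which corrects background, equalises the arrays' distributions and summarises the probes of a probe set. A difference of 1 on this scale is a doubling, and the number of arrays limits the precision. The medians of the 20 arrays lay between 9.23 and 9.28, and no array was left out. Of 13 mesenchymal genes and markers of this line 11 were measured, and in the DMSO group they ranged from NES at 8.48 to VIM at 13.4. CD44 was at 12.7 and FN1 at 12.7, while SOX9 was at 9.30. Of 22 neuronal markers 12 were measured, and TUBB3, DCX, NEFL, NEFM, STMN2, SLC17A6 and SLC17A7 were among the 10 not analysed here. The measured ones ranged in DMSO from ELAVL3 at 8.25 to UCHL1 at 12.2, with ENO2 at 10.3 and SNAP25 at 10.1. A gene's RNA was read in bulk, where fewer cells that express it and less RNA per cell cannot be told apart.

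The 5 genes belong to different steps of neuronal and endocrine biology. Dense core granules store peptide hormones, which prohormone convertases cut from larger precursors, and SCG5 is the chaperone that holds the convertase PCSK2 in check until it reaches the granule. At the presynaptic active zone RIMBP2 ties RIM scaffold proteins to voltage-gated calcium channels, so that vesicles fuse close to the calcium entry. ST8SIA5 adds sialic acid to sialic acid on gangliosides, the glycolipids that are abundant in neuronal membranes. CHODL, chondrolectin, is a membrane protein with a C-type lectin domain, known from zebrafish for guiding the axons of motor neurons. TBR1 is a T-box transcription factor of deep-layer neurons of the cerebral cortex.

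The stretch around the transcription start is shown for 4 starts because AHR with its partner ARNT is known to bind the core GCGTG, and the compounds are studied as its ligands. RefSeq windows of GRCh38.p14, from 250 bases before to 50 after a start, were at hand for 4 of the 5 genes, with 7 starts in all. Each is written 5′ to 3′ along the gene's strand, and capitals mark GCGTG read on either strand.
RIMBP2, chr12:130715524-130715823, minus strand: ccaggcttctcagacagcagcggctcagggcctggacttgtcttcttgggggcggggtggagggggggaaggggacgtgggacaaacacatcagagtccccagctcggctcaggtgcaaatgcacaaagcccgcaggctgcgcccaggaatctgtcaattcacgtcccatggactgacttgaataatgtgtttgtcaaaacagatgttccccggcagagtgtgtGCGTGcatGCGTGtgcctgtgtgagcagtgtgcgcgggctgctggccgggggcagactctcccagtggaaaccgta
CHODL, chr21:18245625-18245924, plus strand: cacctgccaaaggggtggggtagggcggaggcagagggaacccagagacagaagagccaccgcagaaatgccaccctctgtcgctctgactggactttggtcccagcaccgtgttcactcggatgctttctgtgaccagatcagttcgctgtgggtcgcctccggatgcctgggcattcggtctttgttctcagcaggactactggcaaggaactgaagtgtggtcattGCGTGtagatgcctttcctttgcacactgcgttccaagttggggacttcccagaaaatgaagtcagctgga
SCG5, chr15:32641460-32641759, plus strand: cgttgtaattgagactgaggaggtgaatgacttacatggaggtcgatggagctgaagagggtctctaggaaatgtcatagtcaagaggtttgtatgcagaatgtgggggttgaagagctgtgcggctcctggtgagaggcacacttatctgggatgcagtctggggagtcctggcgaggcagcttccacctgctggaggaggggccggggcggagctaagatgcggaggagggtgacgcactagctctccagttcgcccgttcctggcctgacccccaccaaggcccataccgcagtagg
TBR1, chr2:161416047-161416346, plus strand: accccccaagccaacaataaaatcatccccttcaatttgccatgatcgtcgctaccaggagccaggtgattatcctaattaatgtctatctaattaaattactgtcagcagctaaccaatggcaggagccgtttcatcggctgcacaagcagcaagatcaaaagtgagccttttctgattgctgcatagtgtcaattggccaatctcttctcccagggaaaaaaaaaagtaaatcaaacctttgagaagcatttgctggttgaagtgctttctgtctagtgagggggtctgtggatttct
The RIMBP2 window held the core with its first base at positions -26 and -18 from the start, and the CHODL window held it at -21, where it also formed the longer TNGCGTG, a pattern that contains GCGTG. The SCG5 and TBR1 windows held none. For RIMBP2 and CHODL, which have several starts, the start printed is the one that held the most cores. Of the remaining starts, a second RIMBP2 start at chr12:130633871-130634170 held 1 core, and a further start each of RIMBP2 and CHODL held none. Among all 35116 human promoter windows of this length 36.5% held GCGTG at least once, 12.7% held it 2 or more times, and 5.51% held TNGCGTG. These shares are per window, and RIMBP2 and CHODL have more than 1 window each. A match describes letters in a window and is not a binding site.

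The genes had been picked with their values on these arrays in view. The comparisons of I3P with DMSO, HPP with DMSO, I3P with HPP and I3P with PP had each called at least 1 of them, so their values there are a description and carry no test. HPP with PP is treated in the same way. A gene was called at a Benjamini-Hochberg adjusted p of at most 0.05 over all genes in limma. The fit was made with and without the replicate number as a block, since arrays of the same number deviated from their groups together.

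Members called and the share of all genes called ran as follows. With I3P against DMSO the blocked fit called 3 of the 5 genes, namely SCG5, ST8SIA5 and CHODL, beside 0.603% of all genes, and the fit without the block called 0 beside 0.0798%. With HPP against DMSO it called SCG5 alone, beside 0.0443% of all genes, and 0 without the block, where 0% of all genes were called. Between I3P and HPP it called RIMBP2, ST8SIA5 and CHODL, beside 0.115% of all genes, and 0 without the block beside 0%. Between I3P and PP it called SCG5, ST8SIA5 and TBR1, beside 0.904%, and TBR1 alone without the block, beside 0.0886%. PP against DMSO called 0 members and 0% of all genes in either fit. HPP against PP called 0 members, beside 0.0266% of all genes with the block and 0% without. Nothing is read from these counts where the comparison chose the genes or called no gene at all. In the blocked limma fit of I3P with DMSO, and as a description only, CHODL lay just inside the threshold with a difference of 0.37 (adjusted p = 0.0393) and RIMBP2 just outside it with 0.35 (0.0664). TBR1 lay farther outside with -0.39 (0.154).

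SCG5, the granule chaperone, was highest with I3P and next highest with HPP. It lies at chr15:32641710-32697092 (GRCh38.p14) and was read by probe set 16798940. In DMSO the levels of replicates 1 to 5 were 9.86, 9.90, 10.57, 9.96 and 9.57, and with PP they were 9.88, 10.13, 10.70, 10.16 and 9.86. With HPP they were 10.32, 10.15, 10.95, 10.48 and 10.14, and with I3P 10.24, 10.37, 10.98, 10.63 and 10.33. Replicate 3 was the highest array of every group, and all groups overlapped. The means were 9.97 ± 0.37 in DMSO, 10.14 ± 0.34 with PP, 10.41 ± 0.33 with HPP and 10.51 ± 0.30 with I3P (SD, n = 5). Each step in this order was smaller than the SD of either neighbouring group. Within numbers the order was tighter: I3P exceeded DMSO in 5 of 5 pairs by 0.39 to 0.76, with a mean difference of 0.54 (SE 0.064 with the block), which is 1.45-fold. HPP exceeded DMSO in 5 of 5 pairs by 0.25 to 0.57, with a mean of 0.44, or 1.35-fold. I3P and HPP differed by 0.10, with a 95% interval of -0.03 to 0.24 in the blocked fit, given as the size of the error and not as a test.

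**Figure D1:**
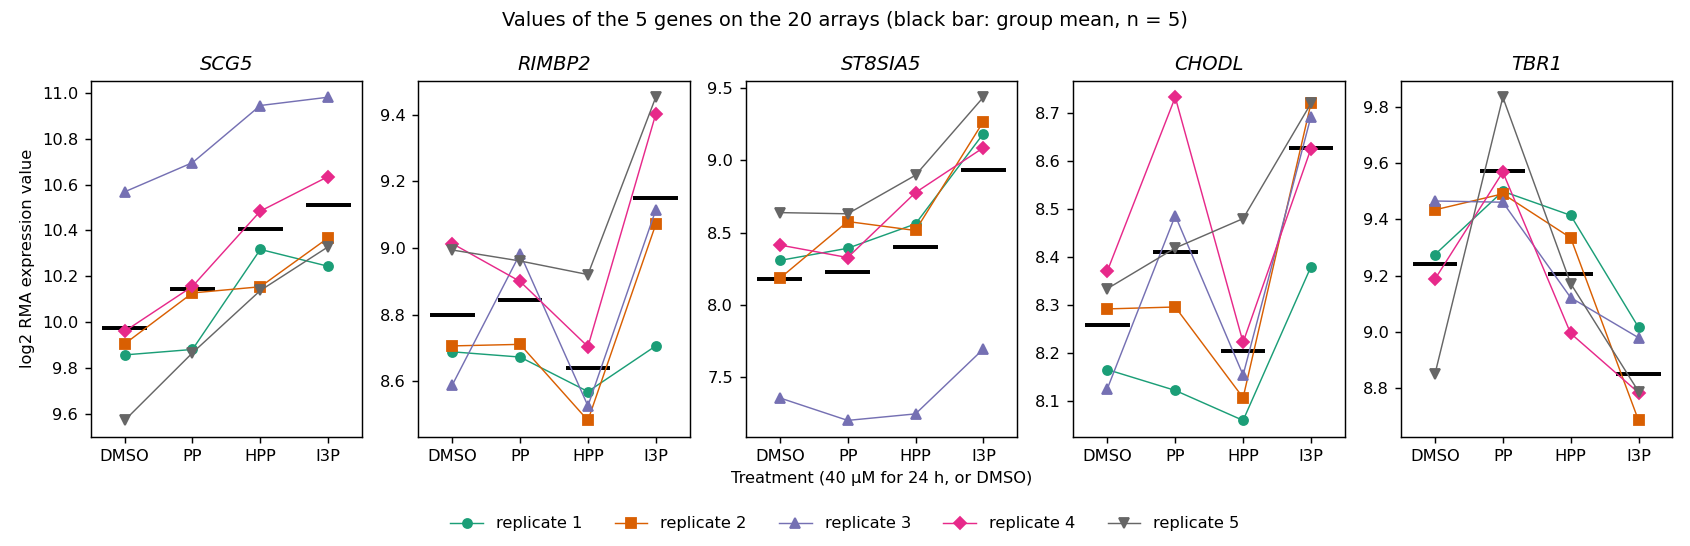
Log2 expression level of each gene on each of the 20 arrays, by treatment. Points are arrays, lines join the arrays of a replicate number, and black bars are means of 5. In every treatment replicate 3 is the highest array of SCG5 and the lowest of ST8SIA5, whereas TBR1 shows the PP group above the I3P group with no overlap.

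RIMBP2, the active zone linker, was higher with I3P than with the other treatments and lowest with HPP. It lies at chr12:130396133-130716299 and was read by probe set 16772466. In DMSO the levels of replicates 1 to 5 were 8.69, 8.71, 8.59, 9.01 and 8.99, and with PP they were 8.67, 8.71, 8.98, 8.90 and 8.96. With HPP they were 8.57, 8.48, 8.53, 8.70 and 8.92, and with I3P 8.71, 9.07, 9.11, 9.40 and 9.45. The first I3P array lay among the arrays of the other groups, and the remaining I3P arrays were above the highest DMSO array. Means were 8.64 ± 0.18 with HPP, 8.80 ± 0.19 in DMSO, 8.85 ± 0.14 with PP and 9.15 ± 0.30 with I3P (SD, n = 5). HPP, DMSO and PP followed each other by no more than their SDs. I3P exceeded HPP in 5 of 5 pairs, by 0.14 to 0.70, with a mean of 0.51 (SE 0.081 with the block), or 1.42-fold. It exceeded DMSO in 5 of 5 pairs by 0.35, of which the pair of replicate 1 gave 0.02 and the others 0.36 to 0.53. HPP was below DMSO in 5 of 5 pairs, with a difference of -0.16 and a 95% interval of -0.33 to 0.01 with the block.

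ST8SIA5, the ganglioside sialyltransferase, had the widest gap between I3P and DMSO among the 5 genes, and its levels also differed most between replicate numbers. It lies at chr18:46667821-46757053 and was read by probe set 16855016. In DMSO the levels of replicates 1 to 5 were 8.31, 8.19, 7.36, 8.42 and 8.64, and with PP they were 8.39, 8.58, 7.20, 8.33 and 8.63. With HPP they were 8.56, 8.52, 7.25, 8.78 and 8.90, and with I3P 9.18, 9.27, 7.70, 9.09 and 9.44. Replicate 3 was between 7.20 and 7.70 in all 4 groups, whereas the other numbers lay between 8.19 and 9.44. ST8SIA5 is a dim gene here, with a mean over all arrays above that of 11.1% of the genes, and its replicate 3 arrays were below the lowest probe set mean in the table, 7.94. On RMA values this low a fold can understate the change. Means were 8.18 ± 0.49 in DMSO, 8.23 ± 0.59 with PP, 8.40 ± 0.66 with HPP and 8.94 ± 0.70 with I3P (SD, n = 5). Each step in this order was smaller than the SDs of the 2 groups it joins. I3P exceeded DMSO in 5 of 5 pairs, by 0.34 in replicate 3 and by 0.67 to 1.08 in the others. The mean difference of 0.75, or 1.69-fold, had an SE of 0.35 without the block and of 0.086 with it. I3P also exceeded PP by 0.71, or 1.63-fold, and HPP by 0.53, or 1.45-fold. HPP exceeded DMSO in 4 of 5 pairs, with a difference of 0.22 and a 95% interval of 0.04 to 0.40 in the blocked fit.

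CHODL, the membrane lectin, was highest with I3P. It too was dim, with a mean above that of 8.84% of the genes. It lies at chr21:17917340-18267370 and was read by probe set 16921692. In DMSO the levels of replicates 1 to 5 were 8.17, 8.29, 8.13, 8.37 and 8.33, and with PP they were 8.12, 8.30, 8.49, 8.73 and 8.42. With HPP they were 8.06, 8.11, 8.15, 8.22 and 8.48, and with I3P 8.38, 8.72, 8.69, 8.63 and 8.72. All I3P arrays were above all DMSO arrays, by 0.0085 between the lowest I3P and the highest DMSO array, and CHODL was the 1 gene of the 5 whose groups did not overlap in this comparison, beside 0.833% of all genes. Means were 8.20 ± 0.17 with HPP, 8.26 ± 0.11 in DMSO, 8.41 ± 0.23 with PP and 8.63 ± 0.14 with I3P (SD, n = 5). The step from HPP to DMSO was within the SDs of both, and the steps from DMSO to PP and from PP to I3P were within the SD of PP. I3P exceeded DMSO in 5 of 5 pairs by 0.21 to 0.57, with a mean of 0.37 (SE 0.079 with the block), or 1.29-fold. I3P exceeded HPP in 5 of 5 pairs by 0.24 to 0.61, with a mean of 0.42, or 1.34-fold. HPP and DMSO differed by -0.05, with a 95% interval of -0.22 to 0.11.

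TBR1, the cortical T-box factor, ran the other way: it was lowest with I3P and highest with PP. It lies at chr2:161416297-161425870 and was read by probe set 16886955. In DMSO the levels of replicates 1 to 5 were 9.27, 9.43, 9.47, 9.19 and 8.85, and with PP they were 9.50, 9.49, 9.46, 9.57 and 9.84. With HPP they were 9.41, 9.33, 9.12, 8.99 and 9.17, and with I3P 9.02, 8.68, 8.98, 8.78 and 8.79. Every PP array was above every I3P array, by 0.446 at the nearest, and above every HPP array, by 0.0467 at the nearest. TBR1 was the 1 gene of the 5 without overlap in each of these, beside 1.15% of all genes for I3P with PP and 0.293% for HPP with PP. Means were 8.85 ± 0.14 with I3P, 9.21 ± 0.17 with HPP, 9.24 ± 0.25 in DMSO and 9.57 ± 0.15 with PP (SD, n = 5). HPP and DMSO differed by less than their SDs, and the steps to I3P and to PP were larger than the SDs of the groups at either end. I3P was below PP in 5 of 5 pairs by 0.48 to 1.05, with a mean of -0.72 (SE 0.11 with the block), or 1.65-fold lower. I3P was below DMSO in 5 of 5 pairs, with a mean of -0.39, and the pair of replicate 5 gave -0.06.

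PP set against DMSO was the comparison in which no gene at all was called, so it did not choose the members. It does share its DMSO and PP arrays with comparisons that chose them. With no gene called, the outcome that none of the 5 genes passed was fixed beforehand and tests nothing about them. Limma gave each an adjusted p of 0.9999 without the block and 0.9996 with it. At an unadjusted p under 0.05 the comparison held 174 of the 11282 genes without the block and 479 with it. The differences with their 95% intervals in the blocked fit were 0.17 (0.04 to 0.31) for SCG5 and 0.05 (-0.12 to 0.22) for RIMBP2. They were 0.05 (-0.14 to 0.23) for ST8SIA5 and 0.15 (-0.01 to 0.32) for CHODL. For TBR1 the difference was 0.33 (0.09 to 0.57), higher in 4 of 5 pairs, and the pair of replicate 5 alone gave 0.99. These intervals do not show that PP leaves the genes at the level of the solvent.

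HPP and PP differ by a hydroxyl group on the phenyl ring, and the 5 genes did not lean one way between them. SCG5 was higher with HPP than with PP in 5 of 5 pairs, by 0.26 (95% interval 0.13 to 0.40 with the block). RIMBP2 was lower in 5 of 5 pairs, by a difference of -0.20 (-0.38 to -0.03), and TBR1 was lower in 5 of 5 pairs, by a difference of -0.36 (-0.60 to -0.13). CHODL was lower in 4 of 5 pairs, by a difference of -0.21 (-0.37 to -0.04), while ST8SIA5 was higher in 4 of 5 pairs by 0.17 (-0.01 to 0.36). No correction for multiple genes or comparisons is built into these intervals.

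**Figure D2:**
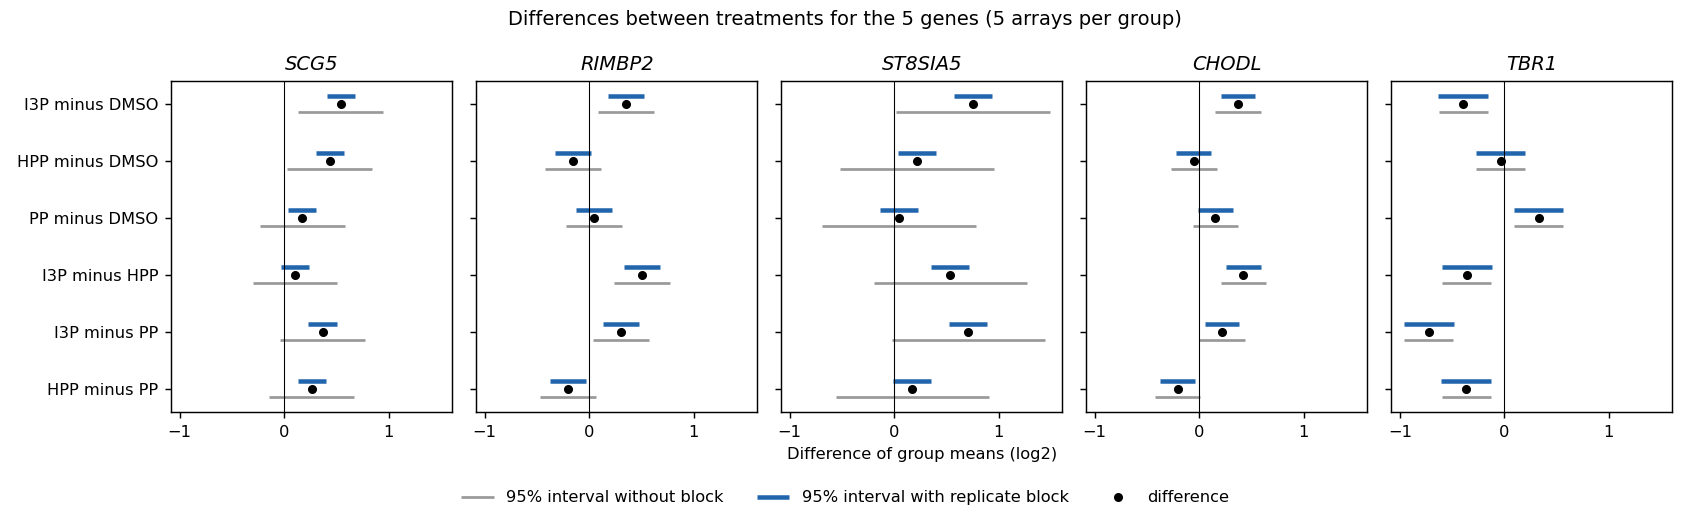
Log2 difference of each gene in the 6 comparisons, with 95% intervals from the fit without the replicate block and from the fit with it. The intervals of SCG5 and ST8SIA5 narrow most with the block, and those of TBR1 hardly change.

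The replicate number took up very different shares of these genes' spread. Of the sum of squares within groups it held 96.0% for ST8SIA5, 94.3% for SCG5, 71.2% for RIMBP2, 57.2% for CHODL and 14.5% for TBR1, against a median of 54.0% over all genes. ST8SIA5 and SCG5 moved in opposite directions in replicate 3: averaged over the 4 groups its arrays were lower by -1.32 for ST8SIA5 and higher by 0.67 for SCG5 than those of the other numbers. For SCG5 the replicate 3 arrays lay between 10.57 and 10.98 and the others between 9.57 and 10.63. RIMBP2 means by number ran from 8.66 for replicate 1 to 9.08 for replicate 5, and TBR1 means only from 9.13 to 9.30. What the numbers stand for in the laboratory is not stated in the labels.

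The genes were next compared over the 20 arrays after each number was centred on its mean over the 4 treatments. These correlations are descriptions over arrays that share 4 treatments and 5 numbers, and carry no test. RIMBP2 and CHODL followed each other most closely among the 5, with r = 0.82, and SCG5 and ST8SIA5 came next with 0.78. Without centring RIMBP2 and CHODL were at 0.85, but SCG5 and ST8SIA5 turned to -0.41. TBR1 ran opposite to ST8SIA5 with r = -0.74, and with -0.44 without centring. Once the treatment means were removed from the centred values as well, these 3 pairs were at 0.36, 0.24 and -0.27. TIPARP, an ADP-ribosyltransferase, and CYP1B1, a cytochrome P450, both textbook targets of AHR, were set beside them. TIPARP averaged 10.03 in DMSO, 9.97 with PP, 10.60 with HPP and 11.06 with I3P, and CYP1B1 averaged 10.62, 10.56, 10.98 and 11.40. ST8SIA5 correlated with CYP1B1 at 0.91 and with TIPARP at 0.86, and SCG5 with them at 0.84 and 0.86. The members were picked for differences between treatments in which TIPARP and CYP1B1 also differ, so part of a high centred r is built in. Without centring ST8SIA5 was at 0.08 and 0.07, and SCG5 at 0.75 and 0.76. TBR1 correlated with TIPARP at -0.79, and at -0.65 without centring, whereas RIMBP2 and CHODL reached no more than 0.53 with either. After removal of the treatment means the values of ST8SIA5 were 0.38 and -0.09, and those of SCG5 were 0.30 and 0.10, while TBR1 with TIPARP was at -0.40.

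**Figure D3:**
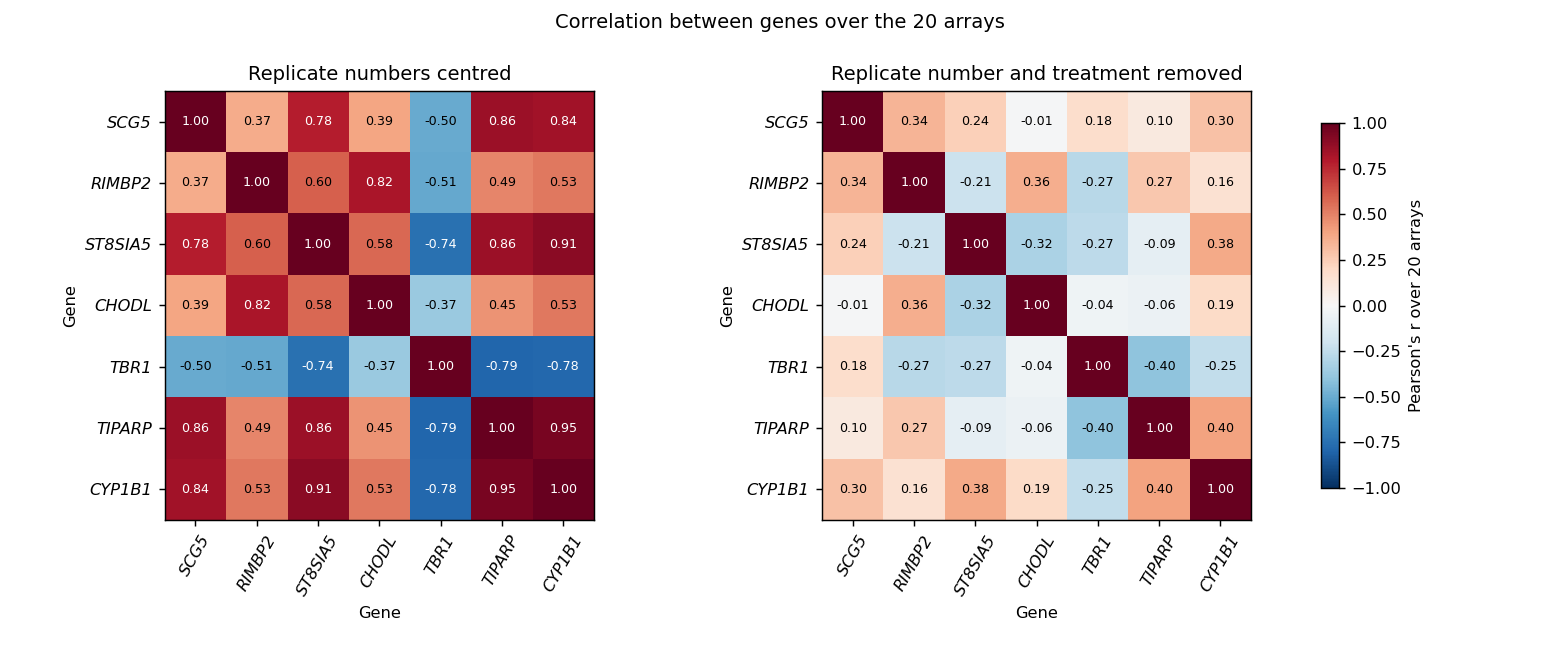
Pearson's r between the 5 genes, TIPARP and CYP1B1 over 20 arrays, with each replicate number centred (left) and with treatment means removed too (right). RIMBP2 pairs with CHODL at 0.82 and ST8SIA5 with CYP1B1 at 0.91 on the left, and on the right these are 0.36 and 0.38. Without centring, which is not drawn, they were 0.85 and 0.08.

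The genes most like each member were then taken over all 11282 by the same centred r. For SCG5 they were SERPINB2 (0.94), IL1B (0.92), MMP1 (0.92), PITPNC1 (0.91) and TMED9 (0.90), of which MMP1 is a collagenase and IL1B an inflammatory cytokine, and the most opposite were ID3 (-0.91), CHERP (-0.89) and CPA4 (-0.87). Without centring only PITPNC1 of the first 5 stayed high (0.96), with SERPINB2 at 0.45, IL1B at 0.01, MMP1 at -0.19 and TMED9 at -0.28, and ID3 was at -0.03. For ST8SIA5 they were ADORA2B (0.95), an adenosine receptor, INSIG1 (0.93), SNX9 (0.91), CYP1B1 (0.91) and SLC16A6 (0.90), against ID3 (-0.89), RUVBL2 (-0.87) and FAM98B (-0.85). Without centring its first 5 ranged from 0.08 for CYP1B1 to 0.74 for SLC16A6, and FAM98B turned to 0.32. ID3, an inhibitor of helix-loop-helix factors, was among the 3 most opposite for both after centring.

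RIMBP2 was most like CHODL (0.82), HOOK2 (0.81), ARRDC3 (0.80), SLC1A1 (0.80), a glutamate transporter, and ATP9A (0.79), and most unlike EIF3J (-0.81), MYC (-0.80) and CDC7 (-0.80). CHODL was most like CCNP (0.85), RIMBP2 (0.82), ARRDC3 (0.79), IGFBP3 (0.78) and KLF13 (0.77), and most unlike LDLRAD3 (-0.88), TYMS (-0.81) and DUSP7 (-0.79). ARRDC3, an arrestin domain protein, appeared beside both. TBR1 was most like UCHL3, RPL6, FARSB and RPL15 (0.89 each) and RPL21P28 (0.88), of which RPL6 and RPL15 are ribosomal proteins, and most unlike TMEM101 (-0.93), DLX2 (-0.91) and CABLES2 (-0.90). Without centring the genes named here for RIMBP2, CHODL and TBR1 had the same signs. All were weaker except RIMBP2 with CHODL (0.85) and CHODL with CCNP (0.87). The weakest for each member were MYC with RIMBP2 (-0.41), IGFBP3 with CHODL (0.33) and DLX2 with TBR1 (-0.25). RPL21P28 carries the name of a pseudogene of a ribosomal protein gene, so its probes may also read near-identical copies.

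The other genes of each member's pathway were counted without the member itself. Of the granule and prohormone genes 19 were tested, and with I3P against DMSO 11 lay above and 8 below, with a median difference of 0.003 beside -0.0001 over all genes. None passed the test in any of the 6 comparisons in either fit. The 2 with the smallest p against DMSO were CPE, a carboxypeptidase that trims prohormones, at 0.27 (limma adjusted p = 0.379 with the block), and PCSK7, a convertase, at -0.16 (0.522).

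Among 24 active zone and vesicle fusion genes 11 lay above and 13 below with I3P, with a median difference of -0.01, and none was called against DMSO. RIMBP2 was not called against DMSO either, and with I3P PPFIA4 lay above it at 0.44. SYP, the synaptic vesicle protein synaptophysin, was the only call of the list: it fell by 0.40 on the log2 scale with I3P relative to PP in the blocked fit (limma adjusted p = 0.0297), and did not pass without the block (0.967). SYP averaged 8.54 ± 0.30 in DMSO, 8.78 ± 0.27 with PP, 8.56 ± 0.38 with HPP and 8.39 ± 0.27 with I3P (SD, n = 5), and its order of means matched that of TBR1 except that HPP and DMSO changed places. SYP also stands on the neuronal marker list, where it was the only call among the 12 measured in the 6 comparisons, and 5 of the 12 lay above and 7 below with I3P against DMSO. Whether neuronal markers have a part in the members' differences was not tested.

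Of 20 ganglioside and sialic acid genes 13 lay above and 7 below with I3P against DMSO, with a median difference of 0.04, and none passed in any comparison in either fit. ST3GAL3, which adds sialic acid to galactose, was at 0.26 (limma adjusted p = 0.292 with the block) and ST6GALNAC6 at 0.18 (0.36). Relative to PP the count was 16 above and 4 below, with a median of 0.06 beside 0.004 over all genes, and ST3GAL2 came nearest with 0.27 (0.113). Of 5 other C-type lectin genes 3 lay above and 2 below with I3P, with a median of 0.07, and none passed in any comparison. LAYN, layilin, was at -0.17 and MRC2, a collagen receptor, at 0.16.

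The T-box and cortical list held 18 other genes, of which 7 lay above and 11 below with I3P against DMSO, with a median difference of -0.03, and none passed in any comparison in either fit. TBX2, a T-box repressor, came closest with -0.33 against DMSO (limma adjusted p = 0.0738 with the block and 0.558 without) and -0.33 against PP (0.0603 and 0.431). Its relative TBX3 was at 0.26 against DMSO (0.255 with the block). TBR1 itself was not called with I3P against DMSO either, at -0.39 (limma adjusted p = 0.154 with the block and 0.558 without). The lowest difference there was that of TBX20, at -0.83, with an SD of 1.13 in the I3P group. With HPP against DMSO TBX1 was at 0.46 (0.646 with the block). Glial, microglial and blood markers, of which 5 of 20 were measured, and the 11 mesenchymal markers held no call in any comparison.

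**Figure D4:**
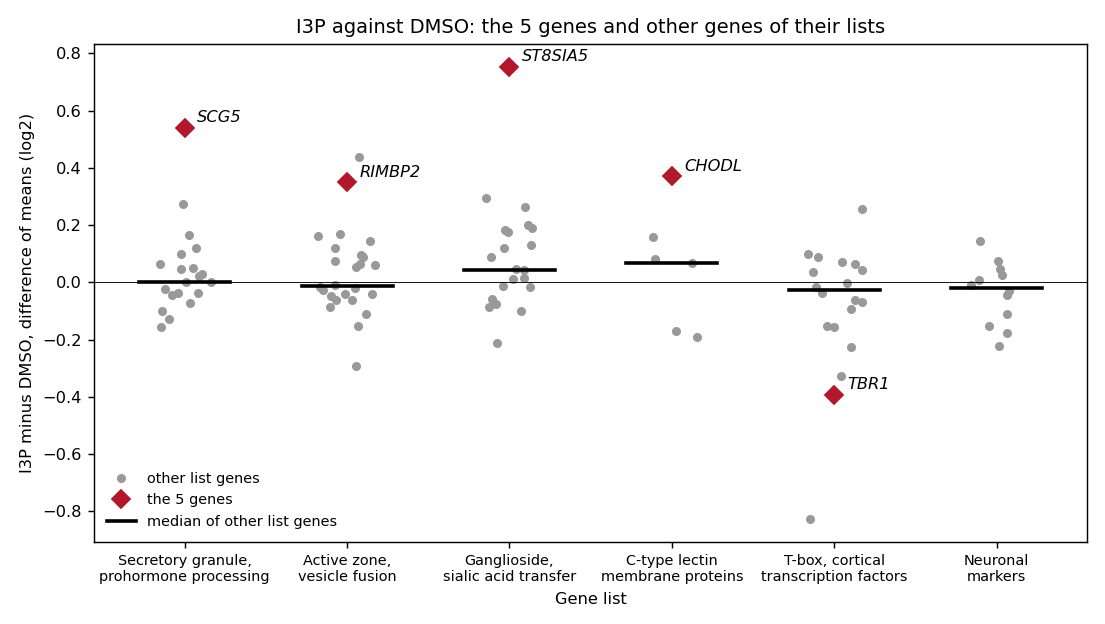
Log2 difference of I3P against DMSO for each measured gene of the pathway lists and of the neuronal markers (grey points, with their median as a bar), with the 5 genes as red diamonds. The other genes spread on both sides of 0, and none of them was called in this comparison, nor were RIMBP2 and TBR1. PPFIA4 (0.44) lay above RIMBP2, and TBX20 (-0.83) lay below TBR1. The 5 genes were picked with these values in view, so part of their distance from the others is built in.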

How the data were processed

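Total RNA of U-87MG cells was hybridised to 20 arrays, 5 in each of 4 groups. The deposited values are log2 expression levels that the authors made with oligo and RMA, per the submitters' processing notes. No version of either is given there. Values of its 12770 probe sets ran from 5.506 to 14.16, and the lowest mean of a probe set was 7.94, so genes of low signal are outside what was tested, and RMA can understate the change of dim genes. Names came from the platform's probe annotation, and 833 symbols were brought up to date with RefSeq (GRCh38.p14), which also gave gene positions and promoter windows. A single symbol was held by 11316 probe sets, several by 629 and none by 825. For 33 genes with more than 1 probe set that with the highest mean was kept, leaving 11282 genes.

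The 6 comparisons were tested 2-sided in R 4.3.3 by lmFit and eBayes of limma 3.58.1, and p-values were adjusted by Benjamini-Hochberg over every gene tested, with a threshold of 0.05. The main fit had no replicate block. The labels number replicates 1 to 5 in every group, and the deviations from the group means correlated above 0.1 in all 30 same-number array pairs (0.163 to 0.714, median 0.431), so the numbers were taken to pair the arrays and the blocked fit is printed beside the main fit. The members and gene lists were chosen with earlier results of these data known. Named genes were the members, for each list the called genes (at most 4) or else the 2 with the smallest p, and for each member the 5 most and 3 least correlated genes. These were too many to print, so only a part is given, mostly from the comparisons with I3P. The AHR target list is not reported as a list, and TIPARP and CYP1B1 were set beside the members. In data simulated for I3P against DMSO over 11282 genes, log2 changes of 0.5 were recovered for 64% of genes without and 79% with the block, and changes of 1 for 94% and 100%, while 1 unchanged gene was called without the block and 8 with it. The simulated spread between numbers already held part of the residual noise, which can favour the block. Genes were drawn independently with normal noise, unlike arrays that deviate together, so these rates may not carry over to the real arrays. Alternatives covered the block, the arrays in the fit, scaling, dim genes, several probe sets and left-out arrays. Plots were made in Python 3.11.15 (matplotlib 3.10.9).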

Additional observations from a re-analysis of the deposited data

Results flagged for a closer look

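Within a group of 5 arrays, a single array was taken to stand apart when its gap to the nearest other array was over 0.71 of the group's range, and 5 of the 20 groups of member values met this. Independent groups of normally distributed values would give about 1 in 20 by chance. The groups here share arrays and replicate numbers, so the count is not set against that rate. For ST8SIA5 the array apart was replicate 3 in each compound group, at 7.20 with PP, 7.25 with HPP and 7.70 with I3P. Without replicate 3 in all groups its difference between I3P and DMSO was 0.86 in place of 0.75. For CHODL it was replicate 1 of I3P, at 8.38, without which I3P exceeded DMSO by 0.43 in place of 0.37. For TBR1 it was replicate 5 of PP, at 9.84. Without that array PP exceeded DMSO by 0.26 in place of 0.33, and I3P differed from PP by -0.66 in place of -0.72, for which limma's adjusted p without the block rose above the threshold to 0.0552.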

How the results depend on the processing

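The number of the 5 genes called depended on the replicate block. With I3P against DMSO it was 0 in the main fit, 3 with the block, 2 with the number as a random block (SCG5 and CHODL, with ST8SIA5 at an adjusted p of 0.107), and 0 to 1 when an array or a number was left out, where leaving out replicate 3 called ST8SIA5 (difference 0.86). The blocked fit called 2 with only the 10 arrays compared (CHODL lost, 0.126), 2 after cyclic loess, 3 with equal array medians and 2 to 4 over the 25 leave-outs. With HPP against DMSO the main fit called 0, the blocked fit 1, also after cyclic loess (1) and equal medians (1), and 0 to 1 over the leave-outs. SCG5 was lost on the 10 arrays (0 called, limma adjusted p = 0.215) and with the random block (0 called, 0.75). Between I3P and HPP the main fit called 0, the blocked fit 3, with 2 after cyclic loess, 3 with equal medians and 0 to 3 over the leave-outs. All 3 were lost on the 10 arrays (0 called, 0.231 to 0.328) and with the random block (0 called, 0.0545 to 0.449). Between I3P and PP the main fit called 1, the blocked fit 3, with 2 on the 10 arrays, 3 after cyclic loess, 3 with equal medians and 2 to 4 over the leave-outs. The random block called TBR1 alone, with SCG5 at 0.169 and ST8SIA5 at 0.11. There the main fit called 0 to 2 when arrays were left out: TBR1 was lost without PP replicate 5 or without replicate 1, 2 or 4, and ST8SIA5 joined it without replicate 3. It was 0 for genes above the median level, since TBR1 is not among them. PP against DMSO and HPP against PP called 0 members under every alternative run. The share of all genes called also changed with the block, from 0.0798% to 0.603% for I3P against DMSO. For the other alternatives that share is not given here, so nothing about the members is read from these counts.

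The comparisons named next had chosen the genes, so the counts describe how calls depend on arrays and are no support for them. Leaving out 1 array of a group not compared left the blocked difference unchanged, such as 0.54 for SCG5 with I3P against DMSO. In the blocked fit the calls of SCG5 and ST8SIA5 with I3P against DMSO, and of ST8SIA5 and TBR1 with I3P against PP, were made in 25 of 25 leave-outs. SCG5 with I3P against PP was called in 23, and was lost without replicate 4 or 5 (limma adjusted p up to 0.0873). SCG5 with HPP was called in 15, and was lost without DMSO replicate 2 or 4, HPP replicate 1, 3 or 4, or any whole number (up to 0.175). CHODL with I3P was called in 9, namely without HPP replicate 1, 2, 4 or 5, I3P replicate 4, or PP replicate 1, 3, 4 or 5, and in the others reached up to 0.195. Between I3P and HPP, RIMBP2 and ST8SIA5 were each called in 14 and CHODL in 2 (up to 0.366).

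Small differences changed sign when arrays were left out, none of them called. RIMBP2 with PP against DMSO ranged from -0.039 to 0.10 without the block and from -0.039 to 0.088 with it, including -0.00409 without DMSO replicate 3 and -0.017 without PP replicate 3. ST8SIA5 in that comparison ranged from -0.16 to 0.30 and from -0.042 to 0.12, including -0.020 without DMSO replicate 2 and -0.00474 without PP replicate 2, and with HPP against PP from -0.082 to 0.46. TBR1 with HPP against DMSO ranged from -0.13 to 0.042 and from -0.147 to 0.042. The latter included 0.023 and 0.026 without DMSO replicates 2 and 3, 0.00655 and 0.00781 without HPP replicates 3 and 4, and 0.00445 without replicate 4. SCG5 between I3P and HPP ranged from -0.014 to 0.24. The cause of these changes was not tested. Without centring the numbers, the 5 most similar genes shared 1 with the centred ones for SCG5, 1 for RIMBP2, 0 for ST8SIA5, 2 for CHODL and 1 for TBR1. The precision is limited by 5 arrays per group, by a single cell line and by the absence of dim genes from the table. The alternatives that combine the block with another choice were added after seeing the data.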
